A study of Mus musculus with 5 samples.

Results

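The circadian clock genes and their PAR bZIP output factors were followed in the livers of Pitx3 mutant mice. The genes were chosen by name, as a list of 10: the repressors Per1, Per2, Per3, Cry1 and Cry2, the activator Clock, the PAR bZIP activators Dbp, Tef and Hlf, and the repressor Nfil3. Of these 10 genes, 8 had a named probe on the array, with 11 of its 20355 probes, among 9930 named genes in all. Cry2 and Clock had no probe under their symbols in the annotation used here and were not analysed here. The mutant group was 5 male mice with the strain label Pitx3eyl-/-, homozygous for the eyeless mutation of the homeodomain factor gene Pitx3 and 17 weeks old. Each 2-colour array carried liver RNA of 1 mutant mouse beside RNA pooled from wild-type mice. The pool held 4 animals by the sample labels and 6 by the labelling protocol, and the labels do not state their age, sex or genetic background. Nor do they state the hour at which the livers were taken. The mutant RNA was in Cy5 on replicates 1, 2 and 4 and in Cy3 on replicates 3 and 5. Each value is a log2 ratio, where 1 unit is a doubling. A positive value stands for more RNA in the mutant; this direction is probable, since the labels put the mutant in the first channel, but no source states it.

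In this clock, a dimer of CLOCK and BMAL1 binds E-box elements and activates the Per and Cry genes, whose proteins then return to the nucleus and repress that dimer. The same dimer drives Dbp, Tef and Hlf, whose proteins, named for a proline- and acid-rich (PAR) domain beside their basic leucine zipper, activate genes through D-box elements. NFIL3 binds the same D-boxes and represses there. In liver these output factors are known for the daily rhythm of drug- and lipid-metabolising enzymes, and Dbp is among the liver transcripts with the widest daily swing.

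Both kinds of element can be read in the promoter letters of some members. They are shown because the question of whether repressors and output factors move together rests on these shared inputs. The windows come from RefSeq (build GRCm38.p6) and run from 250 bases before to 50 bases after each start site; 9 of the 10 listed genes matched by symbol, with 13 windows, and Per2 did not. The search covered both strands for the E-box CACGTG, the E-prime box CACGTT and the D-box TTANGTAA, and no match overlapped another in these genes. Of 32851 promoter windows in the table, 7.15% held the E-box, 4.68% the E-prime box and 2.32% the D-box. Among the 13 windows here, 4 held an E-box, 2 an E-prime box and 1 a D-box. The 250 bases before the start site are printed for a window each of Per1, Per3, Cry1 and Tef, on the gene's own strand, with the matches in capitals.
Per1, chr11:69098699-69098948, plus strand: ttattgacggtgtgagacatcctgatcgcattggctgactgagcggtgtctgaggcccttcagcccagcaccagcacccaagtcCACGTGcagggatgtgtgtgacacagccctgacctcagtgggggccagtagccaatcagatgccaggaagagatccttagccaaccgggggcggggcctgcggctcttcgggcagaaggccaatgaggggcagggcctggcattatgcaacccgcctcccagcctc
Per3, chr4:151044666-151044915, minus strand: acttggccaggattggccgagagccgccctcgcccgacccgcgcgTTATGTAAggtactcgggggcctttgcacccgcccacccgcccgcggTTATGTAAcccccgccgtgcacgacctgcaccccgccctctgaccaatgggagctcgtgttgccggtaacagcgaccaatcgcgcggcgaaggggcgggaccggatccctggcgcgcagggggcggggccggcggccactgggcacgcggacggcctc
Cry1, chr10:85185055-85185304, minus strand: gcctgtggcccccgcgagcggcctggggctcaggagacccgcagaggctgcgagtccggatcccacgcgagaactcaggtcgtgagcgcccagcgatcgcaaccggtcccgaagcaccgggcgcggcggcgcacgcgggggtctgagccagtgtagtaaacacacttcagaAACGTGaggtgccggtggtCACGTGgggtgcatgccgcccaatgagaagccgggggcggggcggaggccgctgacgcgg
Tef, chr15:81802423-81802672, plus strand: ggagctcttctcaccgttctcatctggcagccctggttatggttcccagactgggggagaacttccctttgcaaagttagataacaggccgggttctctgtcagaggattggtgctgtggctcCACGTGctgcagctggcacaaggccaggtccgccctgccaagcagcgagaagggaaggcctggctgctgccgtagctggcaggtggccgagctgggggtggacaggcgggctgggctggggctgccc
Per1 holds an E-box whose first base lies at position -166 from the start site. Per3 holds 2 D-boxes, at -205 and -158. Cry1 holds an E-box at -60 and an E-prime box at -79, and Tef an E-box at -127, with another at -138 in its second window. The window of Cry2 held an E-prime box at -166. No match fell in the windows of Dbp, Hlf, Nfil3 or Clock, which says no more than that these letters are not in those bases.

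Measurement was incomplete for the clock probes as for the array as a whole. Between 21.9% and 33.3% of all probes had no value on an array, and 31.3% of probes had values on all 5. The spread over all probes of an array was 1.51 to 1.72 (SD of the log2 ratio). No wild-type animal was hybridised alone, so the pool counts as 1 control sample and the spread between wild-type mice is left out of every error. Ratios carry no level, so the tissue label could not be checked by abundance. Of 8 hepatocyte markers 5 had a probe, and each was measured on 4 or 5 arrays. Albumin, Alb, was the most even of them, between -0.34 and 0.08, and the apolipoprotein gene Apoa1 the least, between -3.75 and 1.10. Trf, the transferrin gene, lay above 0 on its 4 arrays, between 0.17 and 1.58.

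Across the 5 mutants no clock or PAR bZIP gene passed the test against the pool. Per3, Dbp, Tef and Hlf had mutant coefficients below 0 and Per2 one just above it, over a span from -1.07 for Tef to 0.075 for Per2. The mutant coefficient is limma's estimate of the log2 ratio with both dye orientations weighted equally. The filter asked for 4 or more measured arrays with both orientations among them, which 5 of the 8 genes met. After Benjamini-Hochberg adjustment over all 6706 tested genes limma called 0 of these 5, and 0 genes in all (0%), with a lowest adjusted p of 0.998. At an unadjusted p under 0.05 the count was 0 of 5, beside 264 of all tested genes (3.94%). The median coefficient of the 5 genes was -0.25, beside 0.033 over all tested genes, and 4 of 5 lay below 0, beside 46.3% of all. Without replicate 4 the median of the 5 was -0.54 and without replicate 5 it was -0.60. These signs rest on replicates 3 and 5 having been turned before deposit. With both turned the other way, 2 of 5 genes (Dbp and Tef) lay below 0, beside 55.8% of all, and the median of the 5 was 0.16, beside -0.063. No direction is read for the genes as a set. Per1, Cry1 and Nfil3 did not meet the filter.

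**Figure D1:**
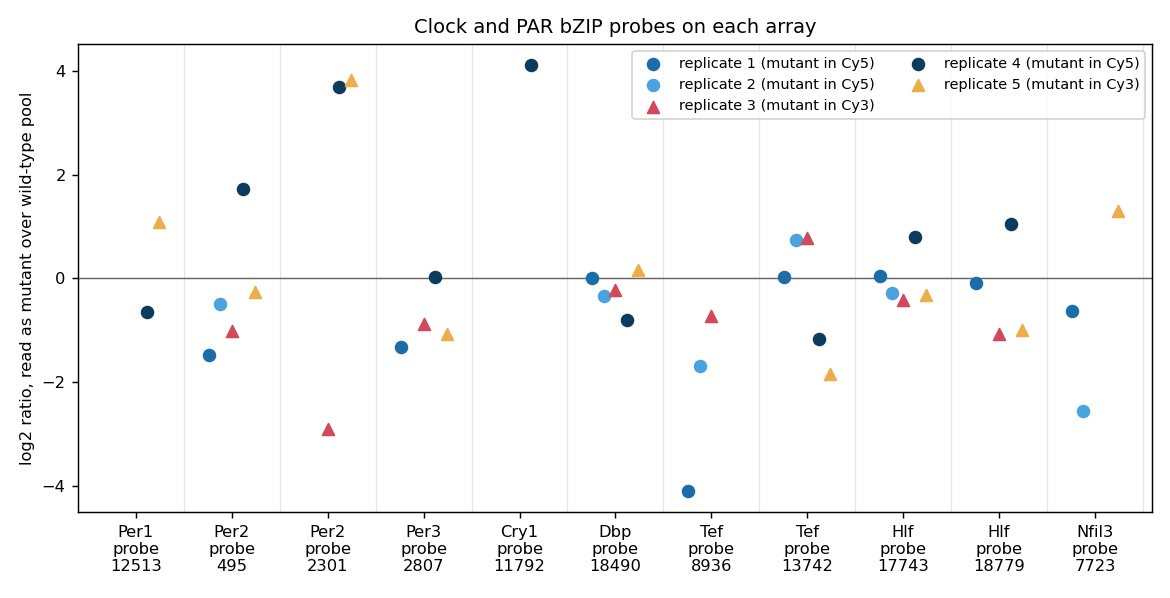
Log2 ratio (vertical axis, mutant over pool) of each of the 11 clock and PAR bZIP probes on each array, with circles for mutant RNA in Cy5 and triangles for Cy3. The single Dbp probe stays between -0.81 and 0.17, while the second probe of Per2 runs from -2.90 to 3.82, and Cry1 has a single value, 4.11 on replicate 4.

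Among the repressors, Per2 was the best covered, with 2 probes. Its probe 495 read -1.48, -0.50, -1.02, 1.72 and -0.27 on replicates 1 to 5. Replicate 4 was thus high and the other 4 arrays lay below 0. Its probe 2301 had values on 3 arrays, with -2.90, 3.69 and 3.82 on replicates 3, 4 and 5. The 2 probes had the same sign on replicates 3 and 4 and opposite signs on replicate 5. For the mean of both probes the coefficient was 0.075 ± 0.84 (SE, 5 arrays; 95% interval -2.02 to 2.17; limma adjusted p 0.998). For probe 495 alone it was -0.37 ± 0.54, so the sign of Per2 depends on the second probe. It also lay below 0 without replicate 4 (-0.54) and without replicate 5 (-0.86), was 0.26 to 1.01 with another replicate left out, and fell just below 0 (-0.034) when arrays were brought to 1 spread. No direction is read for Per2.

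Per3, a PER family member that is dispensable for the core rhythm, had 1 probe, with -1.33, -0.88, 0.019 and -1.08 on replicates 1, 3, 4 and 5. Of these 4 values 3 lay near -1 and that of replicate 4 at 0. The coefficient was -0.82 ± 0.39 (SE, 4 arrays; 95% interval -1.85 to 0.22), with an unadjusted p of 0.0959 and an adjusted p of 0.998 in limma. Values averaged -0.65 with the mutant in Cy5 and -0.98 in Cy3, so the orientations had the same sign. Without replicate 4 the coefficient was -1.15, and without replicate 1 it was -0.48.

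Per1, the PER gene known for its rapid induction by light and hormones, was measured on 2 arrays, at -0.64 on replicate 4 and 1.09 on replicate 5. Those values lie on either side of 0 and in opposite dye orientations. Cry1, which encodes the strongest repressor of the CRY pair, had 1 value, 4.11 on replicate 4. Neither gene has a test here. Each of the 4 measured repressors thus had a value on replicate 4, where Cry1 and both Per2 probes stood high, Per3 near 0 and Per1 below it.

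Among the PAR bZIP activators, Dbp was the most even. Its single probe read 0.008, -0.34, -0.21, -0.81 and 0.17 on replicates 1 to 5. Replicate 4 was the lowest array and no value was more than 1 unit from 0. The coefficient was -0.20 ± 0.29 (SE, 5 arrays; 95% interval -0.92 to 0.52; limma adjusted p 0.998). Leaving out a replicate gave -0.30 to -0.094, with the smallest size without replicate 4.

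Hlf had 2 probes, which resembled each other more than those of Per2 and Tef did. Probe 17743 read 0.056, -0.29, -0.42, 0.80 and -0.32 on replicates 1 to 5. Probe 18779 read -0.090, -1.08, 1.05 and -0.99 on replicates 1, 3, 4 and 5. Both stood highest on replicate 4 and below 0 on replicates 3 and 5, and their signs matched on 3 of 4 shared arrays. The coefficient of their mean was -0.25 ± 0.31 (SE, 5 arrays; 95% interval -1.03 to 0.54; limma adjusted p 0.998). It was -0.43 without replicate 4 and -0.092 for probe 17743 alone, a move of over 1.5 times either way. The mean was 0.21 over the Cy5 arrays and -0.70 over the Cy3 arrays, and the dye coefficient (Cy5 mean minus Cy3 mean, divided by 2), 0.45 ± 0.31, exceeded the mutant coefficient in size. That was so for 2 of the 5 tested genes, the other being Per2. limma called the dye coefficient of 0 of the 5 genes, and of 0 of all genes (0%). At an unadjusted p under 0.05 it stood at 0 of 5, beside 476 of all 6706 tested genes (7.1%). Turning replicates 3 and 5 exchanges the mutant and dye coefficients of the fit. The turned values given here are therefore these dye coefficients, with the same counts, and not a separate result.

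Tef had the coefficient farthest from 0 in the orientation used here, and its 2 probes had opposite signs on the arrays that measured both. With replicates 3 and 5 turned it was -0.16, the smallest in size of the 5, and Hlf, at 0.45, was the farthest from 0. Probe 8936 read -4.09, -1.69 and -0.73 on replicates 1 to 3 and had no value on replicates 4 and 5. Probe 13742 read 0.019, 0.75, 0.79, -1.16 and -1.85 on replicates 1 to 5. On the 3 arrays with both probes, 8936 was below 0 and 13742 above it each time. The mean of the probes therefore mixes both on replicates 1 to 3 and holds 13742 alone on replicates 4 and 5. Its coefficient was -1.07 ± 0.43 (SE, 5 arrays; 95% interval -2.13 to 0.0013), with an unadjusted p of 0.0502 and an adjusted p of 0.998 in limma. Probe 13742 alone gave -0.33 ± 0.52. The value was -0.22 without values at ratios of small whole numbers, taken as a mark of low signal, and -0.60 without replicate 5.

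**Figure D2:**
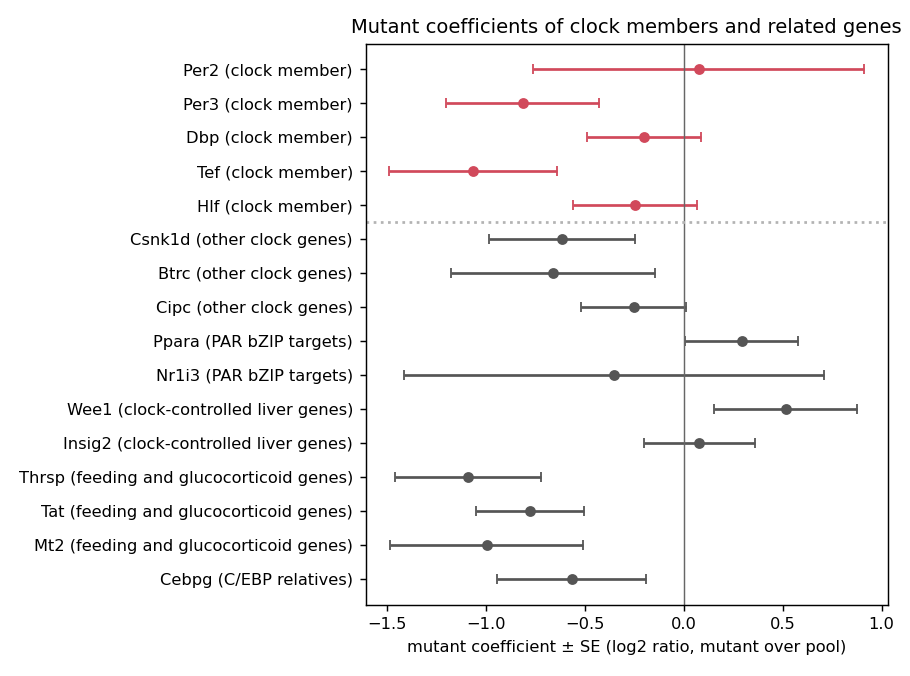
Mutant coefficient (horizontal axis, log2 ratio of mutant over pool; bars are ± 1 SE from limma) of the 5 tested clock members above the dotted line and of 11 related genes below it. Tef stands at -1.07 and Per3 at -0.82 (-0.16 and 0.16 with replicates 3 and 5 turned), and none of the genes shown was called.

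Nfil3, the D-box repressor, had values on 3 arrays, -0.64, -2.55 and 1.31 on replicates 1, 2 and 5. The array with the mutant in Cy3 was the one above 0. With the filter lowered to 3 arrays its coefficient was -0.14 ± 0.66 (SE, 3 arrays; limma adjusted p 0.998). Its interval, -2.10 to 1.81, spans a larger range than that of Dbp, Hlf, Per3 or Tef.

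The medians of repressors and PAR bZIP activators were on the same side of 0 on 3 of 5 arrays. Measured from the median of all tested genes on each array, they were on the same side on replicates 2 and 3 only. On replicate 1 that median was -0.098, with the activator median above it and the repressor median below it. The median repressor stood at -1.40, -0.50, -1.42, 1.36 and 1.09 on replicates 1 to 5, over 2, 1, 2, 4 and 3 measured genes. The median of Dbp, Tef and Hlf stood at -0.017, -0.34, -0.21, -0.81 and -0.65 on the same arrays. Both medians were below 0 on replicates 1 to 3, and on replicates 4 and 5 the repressor median was above 0 while the activator median was below it. The repressors measured differ between arrays: on replicate 5 the high values were Per1 and Per2 probe 2301, while Per2 probe 495 and Per3 stood at -0.27 and -1.08. Leaving out a replicate moved the repressor coefficient median, -0.37 over Per2 and Per3, between -0.85 (without replicate 4) and 0.072 (without replicate 3). For the activators the same median was -0.25 and ranged from -0.43 (without replicate 4) to -0.21 (without replicate 2).

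**Figure D3:**
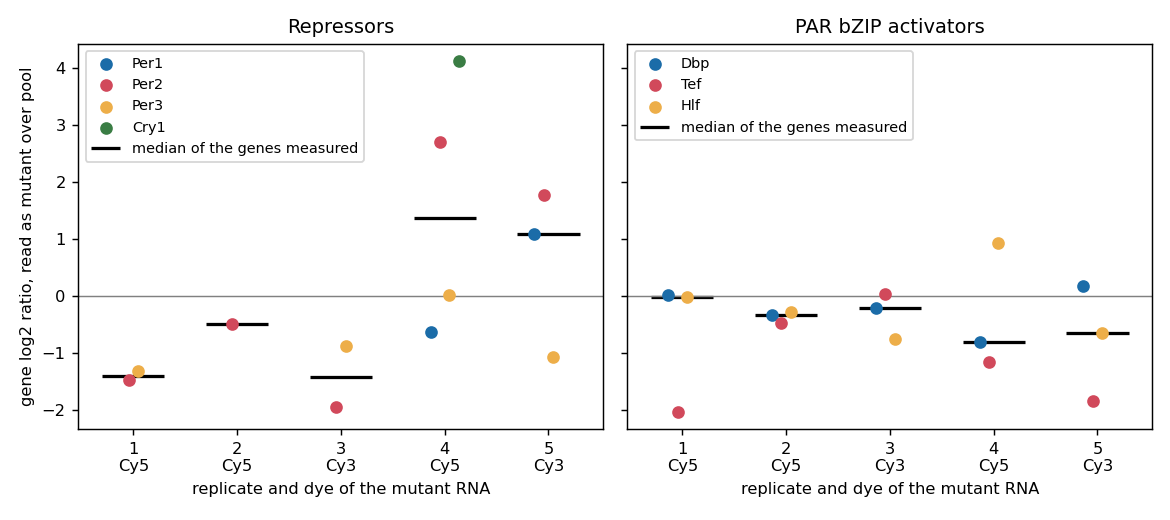
Gene log2 ratios (vertical axis, mutant over pool, probes of a gene averaged) by replicate, with the dye of the mutant RNA under each number, for the repressors (left) and the PAR bZIP activators (right). Black lines are the median of the genes measured on that array. Repressor medians run from -1.42 to 1.36 and activator medians from -0.81 to -0.017.

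The same question was put to pairs of genes. Taking every repressor with every PAR bZIP activator on each array, 20 of 36 pairs of values (55.6%) were on the same side of 0. For all tested genes that share was 50.6% on the same arrays. Measured from each array's median the count was 18 of 36 (50%), beside 49.9% for all. Within the activators it was 7 of 15 (46.7%) around 0 and 9 of 15 (60%) around the array medians. Within the repressors it was 6 of 11 (54.5%) around 0 and 5 of 11 (45.5%) around the medians. The pairs share genes and arrays and carry no test.

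Single pairs ranged widely. Per2 probe 495 and Hlf probe 17743 had the same sign on 4 of 5 arrays, also when measured from the array medians, with both high on replicate 4. Per3 and the mean of Hlf had the same sign on 4 of 4 arrays, but were on the same side of the array median on 2 of 4. Dbp had the sign of Per2 probe 495 on 2 of 5 arrays and of Per3 on 1 of 4, and around the array medians these counts were 3 of 5 and 3 of 4. On replicate 4 Dbp had its lowest value, -0.81, and the mean of Hlf its highest, 0.92. With 5 arrays no correlation between genes is given.

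Probes of the same gene were set against each other as a check on single values. The 2 Hlf probes differed by 0.49 (root mean square over 4 arrays), which was less than in all but 5.73% of 2881 probe pairs from 1789 genes. The Per2 probes differed by 2.84 and the Tef probes by 2.89, each over 3 arrays, where the median pair differed by 1.73. Over all pairs, the signs of same-gene probes matched in 51.0% of 10815 pair values. That is close to the 50.6% given above for pairs of all tested genes, so over all pairs the sign on 1 probe told little about the sign on another. Of the members' 40 measured values 18 (45%) were over 1 unit from 0, beside 39.5% of all values.

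The spread between arrays also separated the members. Dbp had an SD of 0.37, with 12.2% of the 11300 tested probes more even. Hlf probe 17743 had 0.50 (22.3% more even) and Per3 0.59 (28.5%). Hlf probe 18779 had 0.99, close to the median of 0.98, and Tef probe 13742 had 1.17 and Per2 probe 495 1.23, with 57.8% and 59.8% of probes more even. All 6 tested probes had coefficients below 0, from -0.82 to -0.092, beside 46.1% of all tested probes, and limma called 0 of them and 0 of all probes (0%), with adjusted p of 0.9995 each. With replicates 3 and 5 turned 1 of the 6, that of Dbp, lay below 0, beside 54.5% of all tested probes. The 6 probes are of 5 genes and share the arrays and the pool.

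**Figure D4:**
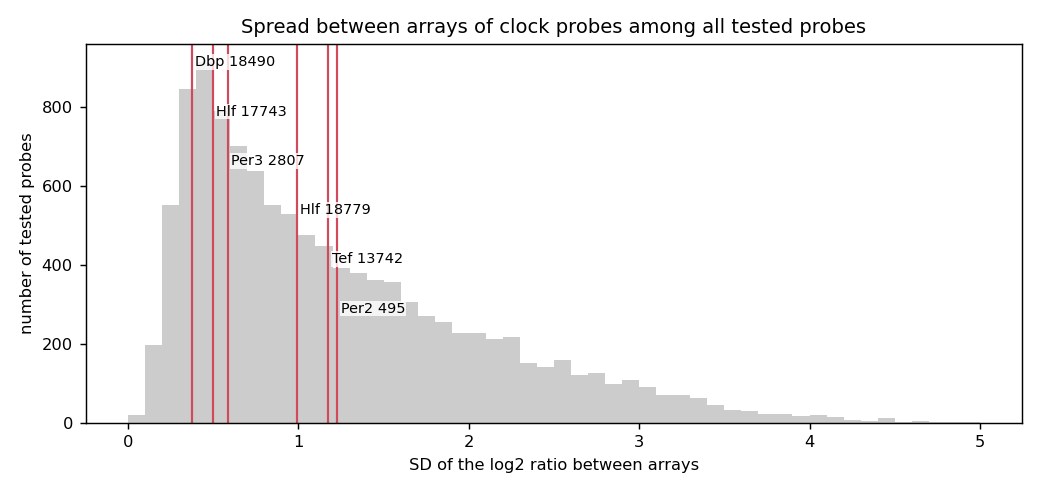
Number of tested probes (vertical axis) by the SD of their log2 ratio between arrays (horizontal axis, which ends at 5 with 7 probes beyond it). Red lines mark the 6 tested clock probes, from Dbp at 0.37 to Per2 probe 495 at 1.23.

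Low signals can be recognised in part from the values themselves. On each array the most frequent value is a constant, and many values lie at that constant plus the log2 of a ratio of small whole numbers. Such values are taken here as a mark of low signal, which was not tested. Values within 0.001 of such a ratio, with whole numbers up to 20, made up 7 of the 40 member values (17.5%), beside 23.8% of all values; part of the matches may be coincidence. They were 3 of the 4 values of Hlf probe 18779 and 1 each for Per3, Dbp and both Tef probes. Without such values Per3 no longer met the filter, Dbp stood at -0.21, Hlf at -0.17 and Per2 at 0.075.

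Other genes around the clock likewise had no call, on lists drawn up by function. Of 17 further clock genes 8 were tested, 2 above and 6 below 0, with a median coefficient of -0.15. Of all tested genes 46.3% lay below 0, with a median of 0.033. With replicates 3 and 5 turned 3 of 8 lay below 0, beside 55.8% of all, and the median was 0.075, beside -0.063. The lowest p belonged to the kinase gene Csnk1d, which marks PER proteins for turnover, at -0.62 ± 0.37, with 0.73 on replicate 1 and -1.97 to -0.27 on the others. Btrc, an F-box protein gene of PER degradation, had -0.66 ± 0.51. Cipc, a repressor that binds CLOCK, had -0.25 ± 0.27 and lay below 0 on all 5 arrays, between -0.48 and -0.076. Bmal1 (symbol Arntl) and Npas2 had no probe under these symbols.

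Targets and outputs were thinly covered. Of 8 PAR bZIP targets 2 were tested: Ppara, the fatty acid sensor gene, at 0.29 ± 0.29, and Nr1i3, encoding the xenobiotic receptor CAR, at -0.35 ± 1.06, with arrays from -4.51 to 2.84. Of 8 clock-controlled liver genes 2 were tested, the mitotic kinase gene Wee1 at 0.51 ± 0.36 and Insig2, a brake on sterol synthesis, at 0.079 ± 0.28. Of 5 C/EBP relatives, bZIP factors outside the PAR group, 1 was tested, Cebpg at -0.57 ± 0.38.

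Feeding- and glucocorticoid-responsive genes, which follow the time of day in liver, had 4 of 5 tested members below 0, beside 46.3% of all tested genes, and a median of -0.78. With replicates 3 and 5 turned 2 of 5 lay below 0, beside 55.8% of all, and the median was 0.14. Thrsp, a lipogenic gene, had -1.09 ± 0.37 and Tat, tyrosine aminotransferase, -0.78 ± 0.28. Tat read -0.13, -0.74, -0.998, -0.33 and -1.32 on replicates 1 to 5, below 0 on every array. Thrsp read -0.50, -1.83, -1.54, 0.011 and -1.30, so replicate 4 was again at 0. The metallothionein gene Mt2 had -0.999 ± 0.49. Thrsp and Tat were the 2 of 5 with an unadjusted p under 0.05 in limma, beside 3.94% of all tested genes in either direction. Both were on the lower side, where 1.61% of all tested genes lay. Both had an adjusted p of 0.998. With replicates 3 and 5 turned Thrsp stood at 0.32 ± 0.37, Tat at 0.38 ± 0.28 and Mt2 at 0.14 ± 0.49. Another metallothionein gene, Mt1, then stood at -2.05 ± 0.81 (limma unadjusted p 0.048). It was the 1 of 5 under 0.05 in that orientation, beside 476 of all 6706 tested genes.

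Marker lists of other cell types were measured beside these values, and limma called 0 genes of any. Lymphocyte markers lay farthest from 0, with 2 of 2 tested genes above it, a median coefficient of 1.48 and array medians from -0.25 to 3.49. Bile duct markers had 3 of 3 above 0 (median coefficient 0.64, array medians -1.02 to 1.79) and erythroid markers 4 of 4 (median 0.53, array medians 0.079 to 0.60). Pancreas markers had 0 of 2 above 0 (median -0.94, array medians -3.11 to 0.41). Kupffer cell markers had 1 of 3 above 0 (median -0.19), endothelial markers 1 of 3 (median -0.55) and stellate markers 3 of 5 (median 0.024). Of all these marker genes, Cd8a of T cells (1.26 ± 0.42) and Ctss of macrophages (2.41 ± 0.48) had an unadjusted p under 0.05 in limma. They were 1 of 2 tested lymphocyte and 1 of 3 tested Kupffer cell markers, beside 3.94% of all tested genes. Turning replicates 3 and 5 gave 0 of 2 lymphocyte and 1 of 3 Kupffer cell markers at that threshold. It also gave 1 of 3 endothelial, 1 of 5 stellate and 2 of 3 bile duct markers. Erythroid and pancreas markers had 0 then, and all tested genes 476 of 6706. With replicates 3 and 5 turned the medians were -0.33 for lymphocyte, -1.05 for bile duct, -0.018 for erythroid and -0.73 for pancreas markers. The turned medians of Kupffer cell, endothelial and stellate markers were -0.20, -0.32 and -0.22, with 5 of 5 stellate markers below 0. Of all tested genes 46.3% lay below 0 in the orientation used here and 55.8% when turned. Fewer cells of a type and less RNA per cell cannot be told apart in whole liver, and the part of cell mixture in the clock values was not tested.

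The genes most like each member in pattern were sought among 4544 others with values on all 5 arrays, by the root mean square difference of median-centred log2 ratios over the 5 arrays. For Dbp this was Ddx54 (0.12), for Hlf Hddc3 (0.19), for Per2 Cldn10 (0.36) and for Tef Ccl3 (0.40). None of these was a clock member, so the closest other member was by construction farther in each case. Dbp and Hlf, each the closest member to the other, differed by 0.89. Of the genes compared, 49.4% were closer to Dbp than Hlf was, and 37.4% were closer to Hlf than Dbp was. For Tef the closest member was Dbp at 1.30, with 12.9% of genes closer, and for Per2 it was Hlf at 1.59, with 15.3% closer.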

How the data were processed

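Liver RNA of 5 mutant mice was compared with a wild-type pool on 5 arrays, 3 with the mutant in Cy5 and 2 in Cy3. The authors deposited 1 log2 ratio of the channels per probe and array, uncentred and with 1 constant per array; the log base was read from the values. How the authors scanned, background-corrected and normalized the arrays is not given in the sources used here. In all, 788 values over 12 in absolute size were read as codes and set to missing. The code changes sign with the dye, so replicates 3 and 5 were taken to have been turned already; arrays of opposite orientation correlated at -0.26 to -0.051 across probes and those of the same orientation at -0.024 to 0.11. The number of arrays limits the precision.

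Names were taken from the annotation of the array platform (14030 probes with 1 symbol, 5 with several, 6320 unnamed here); gene identifiers of 13994 probes matched a RefSeq table of GRCm38.p6, which changed 0 symbols. Probes of a gene were averaged. limma 3.58.1 (R 4.3.3) fitted an intercept, the mutant coefficient, and a dye term, tested with lmFit and eBayes; p-values were adjusted over all tested features at a threshold of 0.05. A tested feature had 4 or more measured arrays, with both orientations among them. The fit was run on simulated data with changes planted only among genes of low spread. That checked the size of the estimate there and cannot show whether changes in genes of wider spread would be called. Members and lists were chosen with earlier results of these data known. All members were named, with the 3 genes of lowest p of each other list and the most alike gene of each member. Each array is 1 mouse, and all share the pool. Alternatives were centring, scaling, no dye term, other filters, codes kept, low-signal values left out, turned swaps, 1 probe per gene and each replicate left out.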

Additional observations from a re-analysis of the deposited data

Results flagged for a closer look

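Among 23 sets of 4 or 5 array values (members' probes and gene means, the related genes named, and the array medians by role), 0 had a lone high or low array beyond the 95% limit of Dixon's test, where chance gives about 1 in 20.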

How the results depend on the processing

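limma called 0 members under each of the 14 alternatives run, and adjusted p of the 5 tested members lay between 0.829 and 0.9994. The coefficients of Dbp (-0.30 to -0.094) and Tef (-1.53 to -0.16) stayed below 0 in all 14. Per2 turned below 0 with arrays centred and scaled (-0.034) and with 1 probe per gene (-0.37); leaving out 1 replicate gave -0.86 to 1.01. Turning the sign of replicates 3 and 5 makes the mutant coefficient equal to the dye coefficient of the unturned fit. With that sign turned, Per3 was 0.16, Hlf 0.45 and the median of the 5 members 0.16. The repressor median was 0.16 there, 0.075 when values on all 5 arrays were required or low-signal values were left out (Per2 alone remained), and 0.012 without replicate 1. The activator median stayed between -0.43 and -0.16. Centring the arrays moved the median of all genes by -0.036. Each ratio already sets a mutant against the pool on the same array, and with 1 group no further pairing was possible. Per1 and Cry1, with 2 values and 1 value, allow no test, and the wild-type spread is unknown.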
